A study of Homo sapiens with 6 samples.

Results

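Glycolysis is the cytosolic route that splits glucose into pyruvate, lactate export disposes of the pyruvate that mitochondria do not take up, and the pentose phosphate pathway branches off at glucose 6-phosphate to make NADPH and ribose phosphate. Transcript levels of 37 genes of these routes, from glucose uptake to lactate export, pyruvate dehydrogenase control and the pentose phosphate branch, were read from RNA sequencing of PC3 cells by their gene symbols. Of the 37 genes, 35 were among the 12227 listed genes, and ENO3 and SLC2A3 were not analysed here. PC3 is an established human prostate cancer cell line. The knockdown cells, labelled VprBP knockdown, carried short hairpin RNA (shRNA) directed at VprBP, which DCAF1 encodes, and the controls, labelled WT, carried control shRNA, with 3 libraries each. Both groups were the same line, kept in DMEM with serum. The labels leave unsaid if sh1, sh2 and sh3 differ by hairpin, by culture or only by library, so p-values here reflect the spread among these libraries, and that spread may be technical.

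In cancer cells glycolysis often runs fast even with oxygen present, and many of its genes are known targets of hypoxia-inducible factor (HIF), which binds DNA elements that contain ACGTG or GCGTG. Flux is known to be controlled at glucose entry, at hexokinase, at phosphofructokinase and at pyruvate kinase, while pyruvate dehydrogenase kinases switch off the enzyme complex that feeds pyruvate into the citric acid cycle. Most steps are encoded by several genes whose products differ in tissue distribution and regulation. Values are the authors' scaled gene signals, which have no absolute unit, and fold changes are knockdown over control.

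Promoters are printed for the 3 members with the largest increases, the 2 with the largest decreases and LDHA, the lactate-producing dehydrogenase gene. They show what sequence lay before a RefSeq start of the genes the results turn on. Those of PFKFB4 and ENO2 lie inside the deposited gene spans, 48517684 to 48562015 and 6913745 to 6923698, and so not upstream of the whole gene. Each is 250 bases before a RefSeq gene start (GRCh38.p14, written on the gene's strand), with each ACGTG and each GCGTG, on either strand, in capitals.
PFKFB4 (chr3:48556804-48557053, minus strand): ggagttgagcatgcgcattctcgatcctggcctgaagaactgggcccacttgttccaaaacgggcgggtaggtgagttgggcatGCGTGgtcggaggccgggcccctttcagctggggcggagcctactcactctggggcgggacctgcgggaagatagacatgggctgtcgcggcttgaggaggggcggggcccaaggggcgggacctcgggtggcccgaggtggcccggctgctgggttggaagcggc
SLC2A1 (chr1:42958869-42959118, minus strand): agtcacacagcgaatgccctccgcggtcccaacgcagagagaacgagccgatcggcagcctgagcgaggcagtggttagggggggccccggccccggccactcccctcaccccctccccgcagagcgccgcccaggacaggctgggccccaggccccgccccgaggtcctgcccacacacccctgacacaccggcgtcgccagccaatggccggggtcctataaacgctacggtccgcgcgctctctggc
ENO2 (chr12:6914330-6914579, plus strand): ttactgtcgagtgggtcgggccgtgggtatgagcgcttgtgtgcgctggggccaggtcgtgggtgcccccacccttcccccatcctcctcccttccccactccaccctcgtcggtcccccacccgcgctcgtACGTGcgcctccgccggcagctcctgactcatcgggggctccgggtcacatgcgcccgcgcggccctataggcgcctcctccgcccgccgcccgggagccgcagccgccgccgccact
LDHA (chr11:18394313-18394562, plus strand): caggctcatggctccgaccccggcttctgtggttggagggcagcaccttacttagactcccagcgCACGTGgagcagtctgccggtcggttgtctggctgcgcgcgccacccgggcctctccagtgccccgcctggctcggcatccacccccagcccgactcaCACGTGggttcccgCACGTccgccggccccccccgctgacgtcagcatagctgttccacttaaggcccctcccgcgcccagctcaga
PDK3 (chrX:24465036-24465285, plus strand): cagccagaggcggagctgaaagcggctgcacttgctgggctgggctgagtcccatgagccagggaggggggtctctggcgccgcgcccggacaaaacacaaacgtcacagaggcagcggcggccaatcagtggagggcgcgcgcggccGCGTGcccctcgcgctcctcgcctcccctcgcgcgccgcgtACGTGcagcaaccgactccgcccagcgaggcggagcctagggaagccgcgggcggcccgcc
PFKL (chr21:44299803-44300052, plus strand): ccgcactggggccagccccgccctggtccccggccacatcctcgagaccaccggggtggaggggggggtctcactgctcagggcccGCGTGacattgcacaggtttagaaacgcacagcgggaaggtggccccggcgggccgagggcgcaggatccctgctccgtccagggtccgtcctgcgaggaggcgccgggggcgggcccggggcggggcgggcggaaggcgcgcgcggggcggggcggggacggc
LDHA held 3 capital stretches in the window shown, and another RefSeq window of LDHA, not shown, held 1. SLC2A1 held none in its window, and the 2 promoters of genes that fell, PDK3 and PFKL, also held capitals.

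DCAF1, the gene targeted, was lower in knockdown cells, with values of 38.5 to 41.1 in knockdown cells and 78.5 to 79.4 in control cells, so 50.6% of the control level remained (limma adjusted p = 3.56e-11). Depth over the listed genes was 23029119 to 39634032 estimated reads per knockdown library and 22981938 to 32292994 per control library. Every member had at least 214 estimated reads in every library, where each listed gene reached 150 in at least 1 library, so none entered the table through 1 group alone. Knockdown library 3 differed most from the libraries of its own group (chi-square per degree of freedom 6.26 and 6.69, against 3.39 to 3.85 for the other pairs within groups). All 6 epithelial markers were listed, with summed values of 2875 to 2943 in knockdown cells and 2352 to 2376 in control cells. KRT8 and KRT18 were 1.64-fold and 1.52-fold higher, CDH1 was 1.06-fold lower (limma adjusted p = 0.0315), and KRT19 averaged 829 in knockdown and 825 in control cells and was not called. Of the fibroblast, leukocyte and endothelial markers only COL1A1, CD68 and PECAM1 were listed, at sums of 20.6 to 28.7, 25.6 to 26.9 and 22.6 to 24.0 in knockdown cells and 23.6 to 25.4, 25.7 to 26.8 and 53.0 to 55.2 in control cells, and the other markers of these 3 lists were not analysed here. What part the shifts in the epithelial markers and PECAM1 have in the results below was not tested. In bulk RNA, fewer cells of a kind and less RNA per cell cannot be told apart.

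Transcripts of the glucose transporter gene SLC2A1, the listed lower glycolytic genes and LDHA were higher in knockdown cells. Those of HK2, the liver and muscle phosphofructokinase genes, PDK3 and several pentose phosphate genes were lower. Of the 35 members, 26 passed the test, against 60.9% of all genes: 18 rose, where 33.0% of all genes did, and 8 fell, where 27.8% of all genes did (limma, adjusted p under 0.05 over all listed genes). The groups did not overlap for 28 members (64.8% of all genes), 18 with knockdown higher (35.1%) and 10 with knockdown lower (29.6%). A rise of at least 1.25-fold was called for 12 members (16.7% of all genes) and a fall of at least 1.25-fold for 1, PDK3 (15.2% of all genes). Tested against a fold of 1.5, PFKFB4, SLC2A1 and ENO2 were called higher (2.42% of all genes were) and no member was called lower (2.90% of all genes were). The median log2 fold change of the members was 0.18, beside 0.02 over all genes. It was 0.47 for lower glycolysis, 0.03 for upper glycolysis and -0.11 for both the pyruvate dehydrogenase and the pentose phosphate members.

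**Figure D1:**
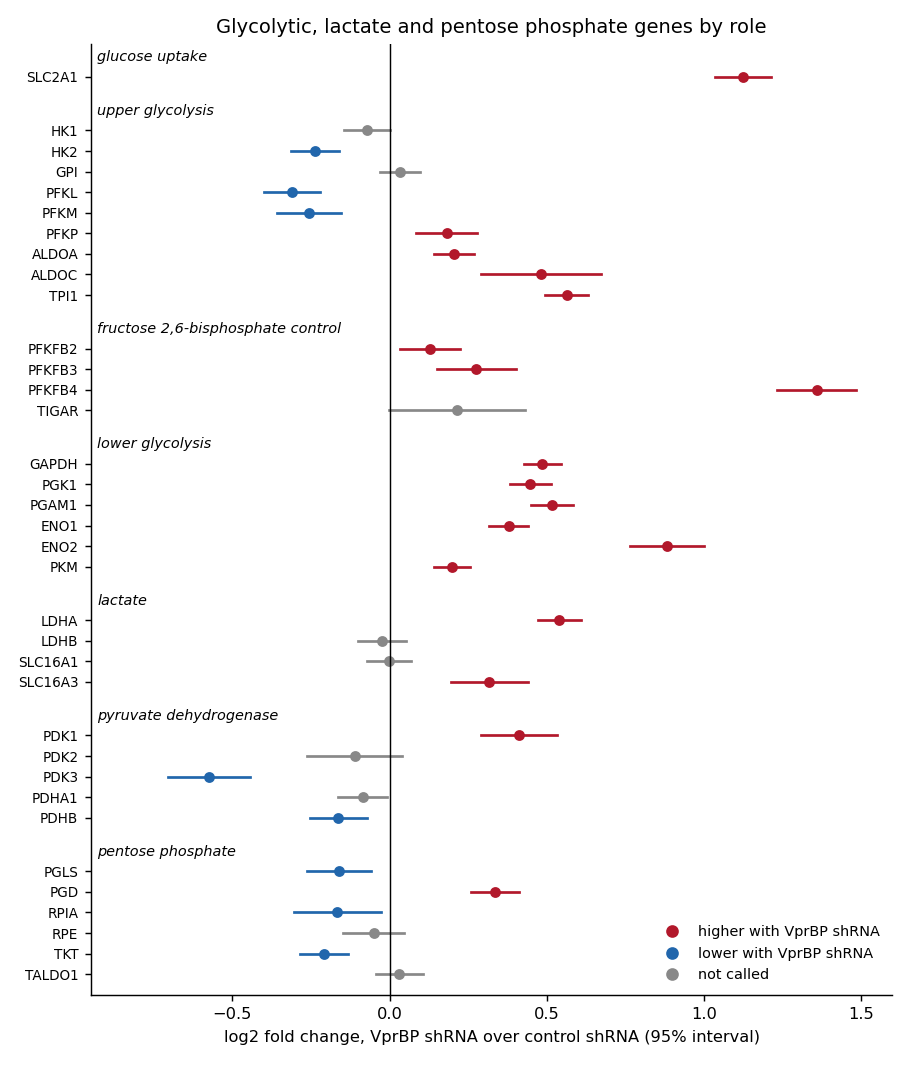
Log2 fold change of the 35 listed members (knockdown over control shRNA, x axis) with 95% intervals from limma, grouped by role down the page. All 6 lower glycolytic genes lie right of 0, while the upper steps, the pyruvate dehydrogenase genes and the pentose phosphate genes lie on both sides.

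SLC2A1 encodes GLUT1, the basal glucose transporter of the plasma membrane. Its value was 271, 277 and 265 in knockdown libraries 1 to 3, against 128, 116 and 129 in control libraries 1 to 3. Every knockdown library was far above every control library. The ratio of means was 2.18 (271 ± 5.81 in knockdown and 124 ± 7.17 in control cells, SD, n = 3 each), with a log2 fold change of 1.12 (SE 0.04, limma adjusted p = 1.35e-12). SLC2A1 (ENSG00000117394.24) spans 42925353 to 42958893 on the minus strand of chromosome 1 (hg38).

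The hexokinase genes and GPI did not share the rise of SLC2A1. HK2 encodes the inducible hexokinase that many tumours rely on, and it fell: its values were 152, 154 and 160.0 in knockdown libraries, against 182, 186 and 182 in control libraries, without overlap (log2 fold change -0.24, SE 0.04, limma adjusted p = 2.75e-05). HK1, the housekeeping hexokinase gene, had 261, 264 and 266 in knockdown libraries and 277, 269 and 287 in control libraries. These groups did not overlap either, but HK1 missed the threshold (limma adjusted p = 0.0795). HK1 was called lower with median-ratio scaling (adjusted p = 0.0211) or equal library sums (adjusted p = 0.0234). It was also called lower with limma-voom (adjusted p = 0.0214) and without control replicate 2 (adjusted p = 0.0418). Over 14 alternatives its adjusted p spanned 0.0211 to 1, and the 1 came from the stricter test against a fold of 1.5. GPI, which encodes the isomerase that makes fructose 6-phosphate, overlapped between groups, at 455 to 464 in knockdown and 445 to 458 in control cells (95% interval of the log2 fold change -0.03 to 0.10).

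Phosphofructokinase, which commits the sugar to glycolysis, has 3 subunit genes, and they moved in opposite directions. PFKL, the liver-type gene, had 229, 245 and 216 in knockdown libraries, against 293, 281 and 281 in control libraries. PFKM, the muscle-type gene, had 91.8, 88.0 and 87.6 in knockdown libraries, against 109.6, 98.8 and 112 in control libraries. PFKP, the platelet-type gene, had 177, 173 and 155 in knockdown libraries, against 149.5, 145 and 149 in control libraries. All 3 genes had groups that did not overlap, and knockdown library 3 was the lowest of its group for each. PFKL and PFKM fell (log2 fold changes -0.31, SE 0.04, and -0.26, SE 0.05; limma adjusted p = 8.55e-06 and 0.00023), while PFKP rose by 0.18 (SE 0.05, limma adjusted p = 0.00271).

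Below phosphofructokinase the direction was upward. ALDOA, the main aldolase gene outside liver and brain, had 1289, 1249 and 1229.8 in knockdown libraries, against 1110.1, 1064 and 1096 in control libraries. ALDOC, the brain-type aldolase gene, had 12.5 to 14.04 in knockdown and 9.09 to 9.83 in control cells, and rose 1.42-fold (limma adjusted p = 0.000227). ALDOA rose less, 1.15-fold (limma adjusted p = 2.42e-05). TPI1, whose enzyme interconverts the 2 triose phosphates, had 719, 676 and 688 in knockdown libraries, against 471, 475 and 463 in control libraries. TPI1 rose 1.48-fold, the largest increase among the upper-glycolysis members (log2 fold change 0.56, SE 0.03, limma adjusted p = 2.72e-10).

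Fructose 2,6-bisphosphate is the strongest known activator of phosphofructokinase, and the PFKFB genes encode the bifunctional enzymes that make and degrade it. PFKFB4 had 58.2, 56.6 and 61.2 in knockdown libraries, against 22.3, 21.5 and 24.0 in control libraries. These values were the farthest apart of any member, 2.60-fold, with a log2 fold change of 1.36 (SE 0.06, limma adjusted p = 1.00e-11), above 99.1% of all genes. PFKFB4 (ENSG00000114268.12) spans 48517684 to 48562015 on the minus strand of chromosome 3 (hg38). PFKFB3, whose enzyme has the highest kinase activity of the family, rose 1.21-fold, with 43.6, 42.4 and 39.1 in knockdown and 35.99, 33.3 and 33.7 in control libraries (limma adjusted p = 0.00073). PFKFB2, the heart-type gene, had 69.1 to 74.5 in knockdown and 65.0 to 65.9 in control cells. Its call (limma adjusted p = 0.0212) was lost with median-ratio scaling (adjusted p = 0.0601) and equal library sums (adjusted p = 0.0553), and without knockdown replicate 1 or 2 or control replicate 1 or 3 (adjusted p between 0.0505 and 0.0991). Over the 14 alternatives its adjusted p spanned 0.00638 to 1, and the 1 came from the stricter test against a fold of 1.5.

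TIGAR encodes a phosphatase that lowers fructose 2,6-bisphosphate. Its values were 20.9, 22.4 and 15.8 in knockdown libraries, against 17.2, 16.5 and 16.4 in control libraries. Knockdown library 3 lay below all control libraries and the other two above them, and TIGAR did not pass the test (limma adjusted p = 0.0802). Without knockdown replicate 3 it was called higher, with a log2 fold change of 0.36 in place of 0.21 (adjusted p = 0.000545). That was the lowest of 14 alternatives, which reached 1 in the stricter test against a fold of 1.5.

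**Figure D2:**
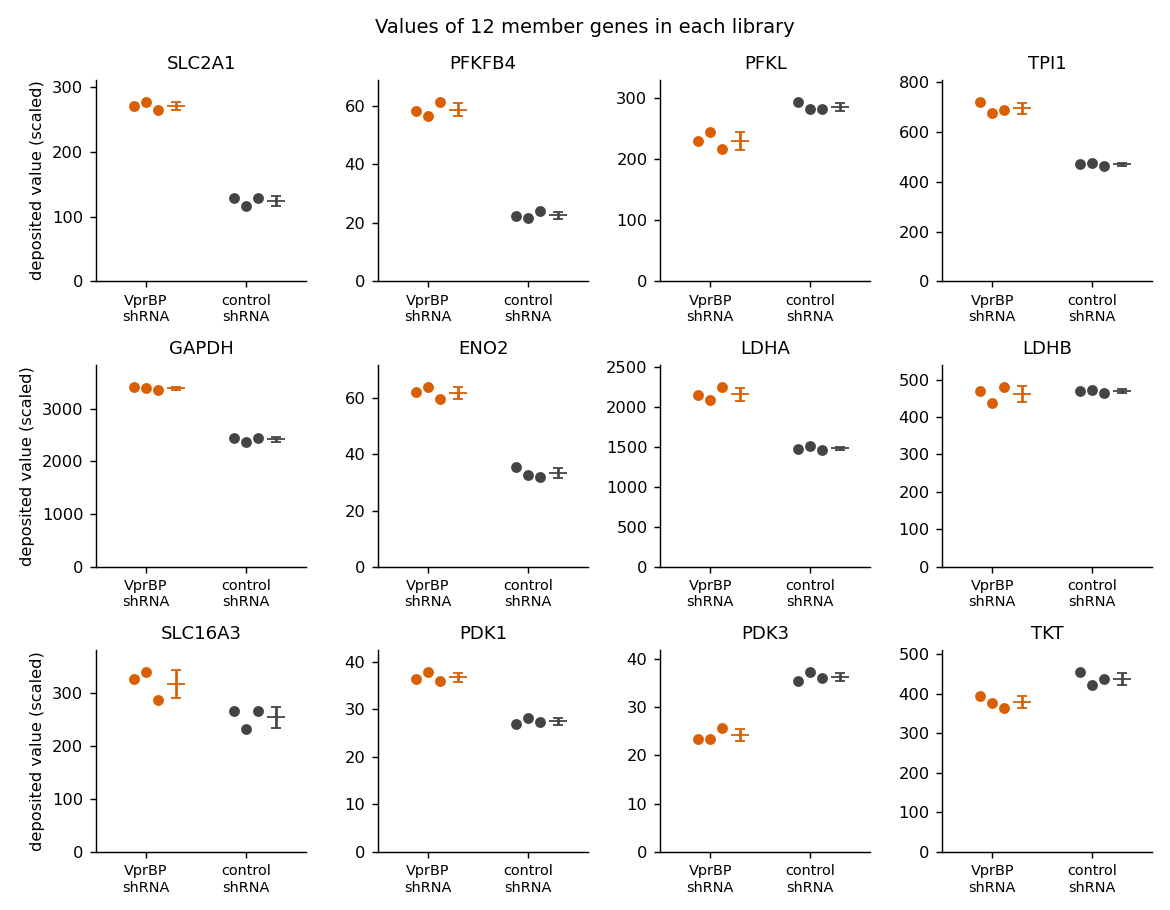
Deposited values of 12 member genes in each library (points) with the mean ± SD of each group (n = 3), on axes that start at 0. SLC2A1 and PFKFB4 separate the groups most widely, PFKL, PDK3 and TKT run the other way, and LDHB overlaps.

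All 6 listed genes of lower glycolysis, the steps that yield ATP and pyruvate, rose. GAPDH, the triose phosphate dehydrogenase gene, had 3405, 3385 and 3358 in knockdown libraries, against 2436, 2368 and 2442 in control libraries. PGK1, whose enzyme makes the first ATP of the pathway, had 1484, 1426 and 1516 in knockdown libraries, against 1074, 1098 and 1072 in control libraries. PGAM1, the phosphoglycerate mutase gene, had 624, 627 and 655 in knockdown libraries, against 452, 441 and 438 in control libraries. In each of these genes the lowest knockdown library stood well above the highest control library, and the rises were 1.40-fold, 1.36-fold and 1.43-fold for GAPDH, PGK1 and PGAM1 (limma adjusted p = 3.51e-10, 2.88e-09 and 6.99e-10).

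ENO1 encodes the widespread enolase and rose 1.30-fold, with 3411, 3374 and 3425 in knockdown libraries, against 2668, 2537 and 2650 in control libraries (limma adjusted p = 1.39e-08). ENO2, the neuron-type enolase gene, had 62.2, 64.0 and 59.9 in knockdown libraries, against 35.6, 32.8 and 31.9 in control libraries. The ENO2 groups were far apart, a 1.86-fold rise (log2 fold change 0.88, SE 0.06, limma adjusted p = 9.82e-10). PKM, the pyruvate kinase gene that ends the pathway, had 3215, 3186 and 3179 in knockdown libraries, against 2795, 2784 and 2766 in control libraries, a rise of 1.15-fold (limma adjusted p = 1.00e-05). The gene-level values do not separate the M1 and M2 splice forms of PKM.

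GAPDH, TPI1 and ENO2 are neighbours on chromosome 12, between 6534512 and 6923698 (hg38). Of the 12 other listed genes in that stretch, which was chosen after the values were seen, 3 rose, 0 fell by the limma test at an adjusted p under 0.05 and 9 missed the threshold (median 0.07 on the log2 scale), where 33.0% of all genes rose and 27.8% fell. Pseudogenes are annotated for 15 of the 35 members, 111 in all in GENCODE 29, of which 62 belong to GAPDH, 4 to TPI1 and 0 to ENO2, and the authors' counting could split reads among the copies. Among the 6 listed pseudogenes, the copy of TPI1 averaged 106 in knockdown and 75.6 in control cells and the 2 copies of GAPDH summed to 40.8 in knockdown and 36.8 in control cells. A gene on the opposite strand overlaps 22 of the 35 members, and for 6 of them it is a listed one. Listed genes also overlap ALDOA and PGK1 on the same strand. These are AC093512.2, at 23.7 in knockdown and 24.4 in control cells, and ATP7A, at 16.4 and 16.6. Reads of all such pairs are uncertain too.

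At the lactate end, the genes tied to lactate production and export rose while their alternatives did not pass the test. LDHA, whose subunit favours pyruvate reduction to lactate, had 2145, 2079 and 2243 in knockdown libraries, against 1477, 1504 and 1464 in control libraries, a 1.45-fold rise (log2 fold change 0.54, SE 0.03, limma adjusted p = 4.43e-10). LDHB, whose subunit favours lactate oxidation, had 469.8, 437 and 479.7 in knockdown libraries, against 471, 474 and 465 in control libraries. The LDHB groups overlapped (95% interval of the log2 fold change -0.10 to 0.05). LDHA (ENSG00000134333.15) spans 18394560 to 18408425 on the plus strand of chromosome 11 (hg38).

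SLC16A3 encodes MCT4, the low-affinity transporter through which glycolytic cells release lactate. It had 326, 339 and 287 in knockdown libraries, against 266, 231 and 266 in control libraries. SLC16A3 rose 1.247-fold (log2 fold change 0.32, SE 0.06, limma adjusted p = 0.000185). The groups did not overlap, and knockdown library 3 was nearest to the controls. SLC16A1 encodes MCT1, which carries lactate both ways, and did not pass the test, with 201 to 204 in knockdown and 201 to 204 in control cells (95% interval of the log2 fold change -0.07 to 0.07). An antisense gene on its opposite strand, SLC16A1-AS1, averaged 13.8 in knockdown and 16.8 in control cells, and without a stated strand setting the reads of the pair cannot be told apart.

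Pyruvate dehydrogenase kinases inactivate the complex that turns pyruvate into acetyl-CoA, and their genes diverged. PDK1 rose 1.34-fold (limma adjusted p = 1.08e-05). It had 36.4, 37.8 and 36.05 in knockdown libraries, against 26.8, 28.2 and 27.3 in control libraries. PDK3 had 23.5, 23.5 and 25.6 in knockdown libraries, against 35.5, 37.2 and 36.003 in control libraries. PDK3 fell furthest among the members, 1.498-fold (log2 fold change -0.57, SE 0.06, limma adjusted p = 5.84e-07), and it spans 24465244 to 24550466 of chromosome X (ENSG00000067992.17, hg38). PDK2 overlapped between groups, at 25.03 to 26.1 in knockdown and 24.6 to 29.2 in control cells (limma adjusted p = 0.193). Without control replicate 2, the lowest control, PDK2 was called lower (adjusted p = 0.0284). That was the lowest of 14 alternatives, which reached 1 in the stricter test against a fold of 1.5.

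The E1 subunit genes of the complex differed less. PDHB, the E1 beta subunit gene, had 83.1, 79.2 and 83.0 in knockdown libraries, against 92.2, 94.2 and 88.4 in control libraries, and fell 1.12-fold (limma adjusted p = 0.00383). PDHA1, the E1 alpha subunit gene, had 141 to 144 in knockdown and 147 to 155 in control cells, without overlap, and missed the threshold (limma adjusted p = 0.0562). PDHA1 was called lower with median-ratio scaling (adjusted p = 0.0165) and equal library sums (adjusted p = 0.0180). It was also called lower with limma-voom (adjusted p = 0.0189) and without knockdown replicate 3 (adjusted p = 0.0376). Over 14 alternatives its adjusted p spanned 0.0165 to 1, and the 1 came from the stricter test against a fold of 1.5.

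In the pentose phosphate branch, 1 of 6 members rose, 3 fell and 2 were not called, where 33.0% of all genes rose and 27.8% fell. PGD, whose enzyme produces NADPH in the oxidative arm, had 206, 204 and 214 in knockdown libraries, against 163, 169 and 162 in control libraries, a 1.26-fold rise (log2 fold change 0.33, SE 0.04, limma adjusted p = 6.97e-07). TKT encodes transketolase, which links the branch back to glycolysis, and fell 1.16-fold, with 394, 378 and 365 in knockdown libraries, against 454, 422 and 437 in control libraries (limma adjusted p = 0.000127). The direction thus differed between PGD and the step before it, since PGLS, the lactonase gene, fell 1.12-fold, at 48.7 to 52.5 in knockdown and 55.9 to 56.9 in control cells (limma adjusted p = 0.0089).

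RPIA, the ribose phosphate isomerase gene, had 25.6, 25.1 and 22.8 in knockdown libraries, against 27.4, 27.4 and 27.8 in control libraries (limma adjusted p = 0.0358). The call was lost without knockdown replicate 3 (adjusted p = 0.137) and without control replicate 1, 2 or 3 (adjusted p = 0.0758, 0.0636 and 0.0863). Over 14 alternatives the adjusted p spanned 0.0177 to 1, and the 1 came from the stricter test against a fold of 1.5. RPE, the epimerase gene, and TALDO1, the transaldolase gene, overlapped between groups. RPE had 77.9 to 81.7 in knockdown and 80.7 to 87.6 in control cells, and TALDO1 had 153 to 159.5 in knockdown and 151 to 153 in control cells (limma adjusted p = 0.347 and 0.464).

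Ratios between genes of a step, taken within a library and so free of library scaling, were computed for 12 pairs. All pairs are of alternative genes except PDHB to PDHA1, which encode different subunits of the same enzyme. The LDHB to LDHA ratio was 0.219, 0.211 and 0.214 in knockdown libraries, against 0.319, 0.315 and 0.318 in control libraries. PFKL to PFKP was 1.30, 1.41 and 1.40 in knockdown libraries, against 1.96, 1.93 and 1.89 in control libraries. PFKFB4 to PFKFB3 was 1.33 to 1.57 in knockdown and 0.618 to 0.713 in control cells. PDK1 to PDK2 was 1.44 to 1.45 in knockdown and 0.931 to 1.15 in control cells. In none of the 12 pairs did the groups overlap. For single genes, 64.8% of all had groups that did not overlap, and no such share was computed for other gene pairs. PFKP, PFKFB3 and PDK2 are each used in more than 1 pair, so the 12 pairs are not separate results. Whether such shifts are particular to these pairs was not tested. Each exact permutation test, two-sided over 20 assignments, gave p = 0.1 before and after adjustment over the 12 pairs. With 3 libraries per group, no lower value was possible.

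**Figure D3:**
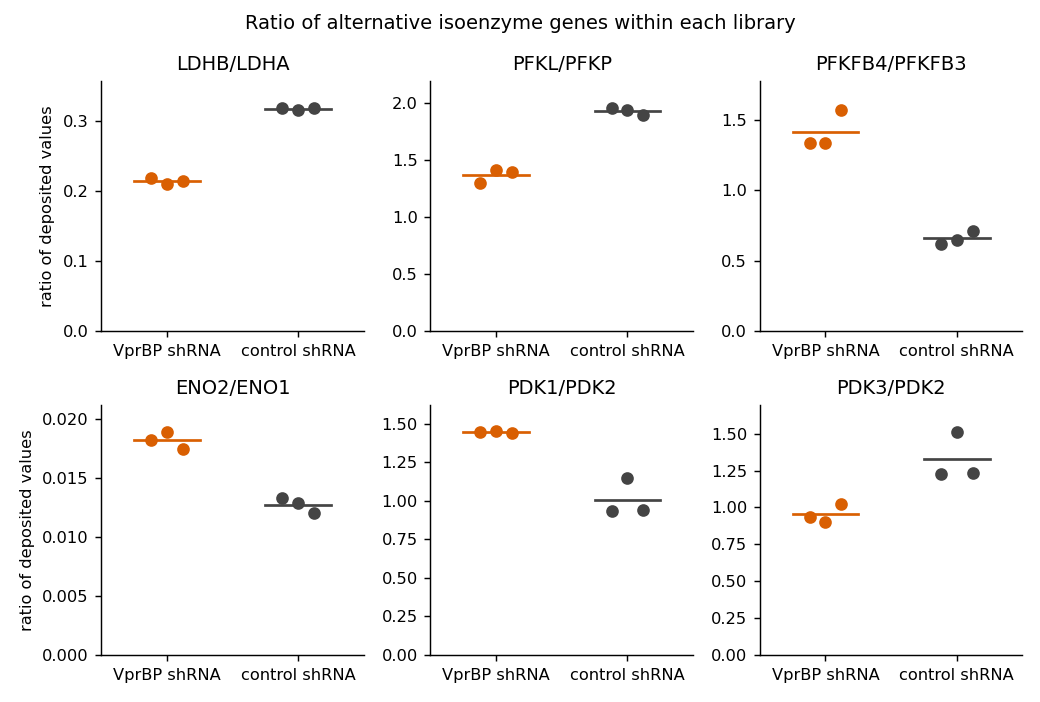
Ratio of the deposited values of 2 genes of the same step in each library (points) with the group mean (line), on axes that start at 0. LDHB to LDHA, PFKL to PFKP and PDK3 to PDK2 are lower with VprBP shRNA. PFKFB4 to PFKFB3, ENO2 to ENO1 and PDK1 to PDK2 are higher, and the groups overlap in no panel.

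Set per kilobase of exon (GENCODE 29), the members spanned a wide range. In values per kilobase, GAPDH stood at 1510 to 1531 in knockdown and 1065 to 1098 in control cells, and ENO1 at 1404 to 1425 in knockdown and 1055 to 1110 in control cells. Their ranges overlapped in control cells and not in knockdown cells, which depends on the length used: per kilobase of the median coding transcript, GAPDH averaged 2645 and ENO1 1910 in knockdown cells, and GAPDH 1888 and ENO1 1469 in control cells. PKM followed at 959.8 to 971 in knockdown and 835 to 844 in control cells, and LDHA at 700.1 to 755 in knockdown and 493 to 506 in control cells. Among the phosphofructokinase genes, PFKL had the highest level per kilobase, 72.9 to 82.8 in knockdown and 95.1 to 99.0 in control cells, ahead of PFKP at 40.9 to 46.7 in knockdown and 38.5 to 39.6 in control cells. HK1 stood above HK2 on the same scale, 56.0 to 57.0 against 25.6 to 26.9 in knockdown cells and 57.5 to 61.4 against 30.6 to 31.3 in control cells.

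As a share of the summed values of a library, the members took 2.03%, 2.002% and 2.01% in knockdown libraries, against 1.66%, 1.63% and 1.65% in control libraries. Lower glycolysis made up most of that, 1.20% to 1.21% in knockdown and 0.934% to 0.953% in control libraries. The pentose phosphate share was 0.0875% to 0.0912% in knockdown and 0.0921% to 0.0942% in control libraries. Among abundant members, 8 of 11 rose, those averaging 400 or more over the libraries, a level chosen after the values were seen; 48.9% of the 327 genes at that level did. Among the 24 members below it, 10 rose (41.7%, beside 32.6% of all genes below it) and 7 fell (29.2%, beside 27.8%).

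**Figure D4:**
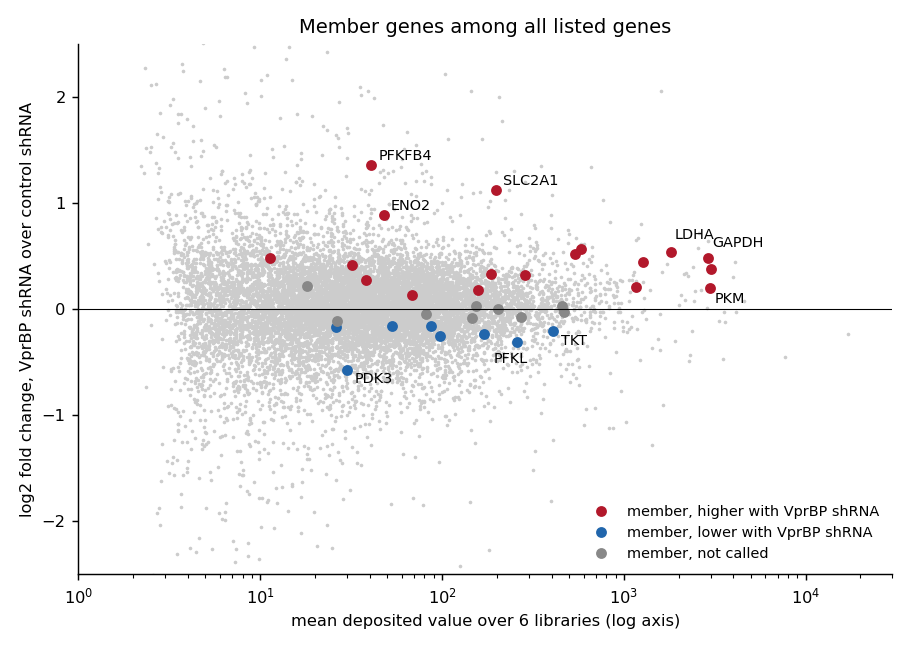
Log2 fold change (y axis) against the mean deposited value over the 6 libraries (x axis, log scale) for all listed genes (grey) and the members (coloured by call). PFKFB4, SLC2A1 and ENO2 lie highest among the members, and 8 of the 11 members averaging 400 or more were called higher; 48 genes fall outside the axes.

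Promoter windows were found in RefSeq for 33 of the 35 listed members, 61 windows in all, each 250 bases before to 50 after a gene start, searched on both strands. ACGTG, which is also contained in every CACGTG, was present in 46.7% of 30 windows of members that rose, 40.0% of 15 windows of members that fell and 18.75% of 16 windows of members not called, beside 25.5% of the 13779 windows of all listed genes and 21.4% of all 35116 windows. GCGTG was present in 46.7%, 40.0% and 31.25% of those windows in the same order, beside 49.1% for all listed genes and 36.5% of all windows. Genes with several windows count more than once here, as PFKM, SLC16A3 and PFKP do. The figures describe letters, not binding.

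Genes of mitochondrial pyruvate use and the citric acid cycle were read beside the members, against the 27.8% of all genes that fell and the 33.0% that rose. Of the 10 other pyruvate dehydrogenase and mitochondrial pyruvate genes, 5 fell, 2 rose and 3 missed the threshold (median -0.19 on the log2 scale, beside 0.02 over all genes). PDK4, the kinase gene induced by fasting, averaged 4.33 ± 0.493 in knockdown and 16.1 ± 2.10 in control cells (SD, n = 3 each), 3.73-fold lower, and PC, which encodes pyruvate carboxylase, was 1.71-fold lower. PDP1, which encodes a phosphatase that reactivates the complex, was 1.44-fold lower. MPC2, a subunit gene of the mitochondrial pyruvate carrier, and PDHX rose 1.24-fold and 1.15-fold. Of 20 citric acid cycle genes, 9 fell, 3 rose and 8 missed the threshold (median -0.12), with MDH2, SDHD and IDH2 lower by 1.35-fold, 1.26-fold and 1.21-fold and ACO1, MDH1 and DLST higher by 1.18-fold, 1.09-fold and 1.08-fold. Limma adjusted p-values of the genes named here were 0.0302 or lower, and the MDH1 groups overlapped.

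**Figure D5:**
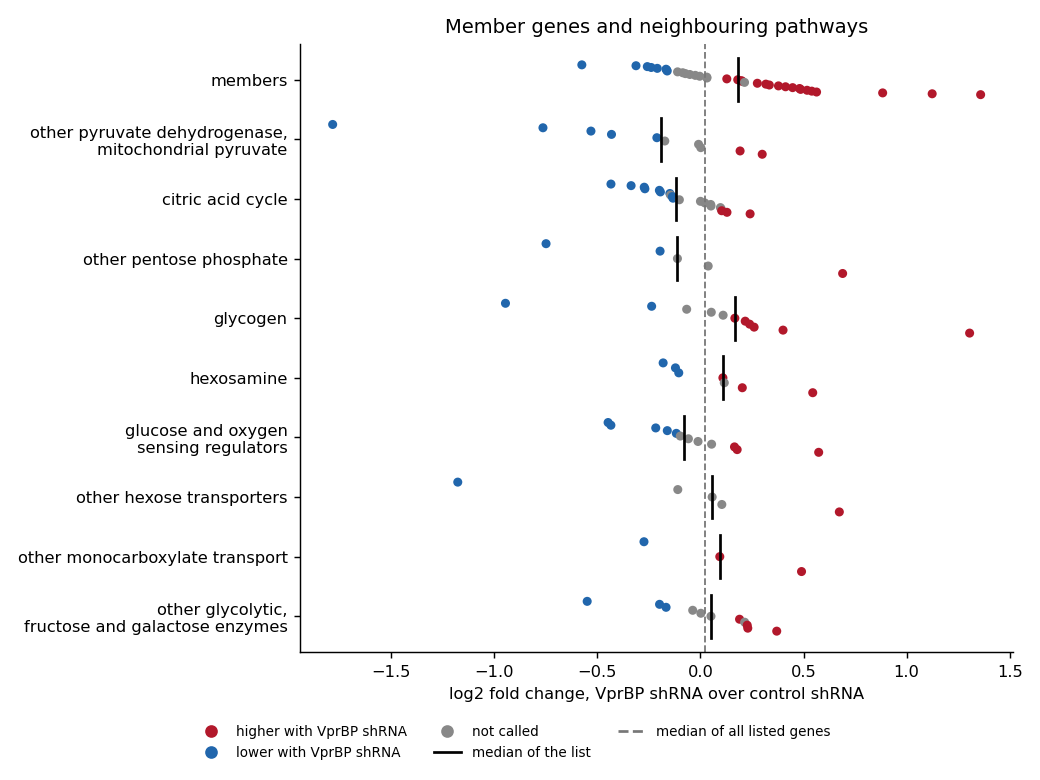
Log2 fold change (x axis) of each listed gene of the members and of the neighbouring lists (rows), with the median of each list (black bar) and of all listed genes (dashed line at 0.02). The member median lies at 0.18, and those of mitochondrial pyruvate use and the citric acid cycle at -0.19 and -0.12.

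Regulators of glucose and oxygen sensing split: of 12 listed, 5 fell (27.8% of all genes did), 3 rose (33.0% of all genes did) and 4 missed the threshold (median -0.08 on the log2 scale). TXNIP, whose protein restrains glucose uptake by GLUT1, averaged 206 ± 3.74 in knockdown and 281 ± 1.80 in control cells (SD, n = 3 each), 1.36-fold lower (limma adjusted p = 6.44e-09). ARRDC4, a relative of TXNIP, was 1.17-fold lower. VHL, the substrate receptor that marks HIF alpha for degradation, was 1.35-fold lower. EGLN1, a prolyl hydroxylase gene, was 1.49-fold higher. HIF1AN and EGLN2, which encode other oxygen-dependent hydroxylases, were 1.13-fold and 1.12-fold higher, though the EGLN2 groups overlapped. HIF1A itself, named after its values were seen, averaged 409.9 ± 10.4 in knockdown and 458 ± 7.84 in control cells (SD, n = 3 each; limma adjusted p = 0.000398). Transcript levels do not measure HIF protein.

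Other transport and branch genes split, beside the 33.0% of all genes that rose and the 27.8% that fell. Of 5 listed hexose transporter genes outside the members, SLC2A6 rose 1.62-fold, SLC2A12 was 2.39-fold lower and 3 were not called. Of 3 monocarboxylate transport genes, EMB and BSG, which encode chaperones of these carriers, rose 1.43-fold and 1.07-fold, and SLC16A7, the MCT2 gene, was 1.21-fold lower. Of 5 other pentose phosphate genes, DERA, a deoxyribose phosphate aldolase gene, rose 1.63-fold. H6PD, which starts the oxidative branch inside the endoplasmic reticulum, was 1.69-fold lower, PRPS2 was 1.15-fold lower and 2 were not called. Of 11 further glycolytic, fructose and galactose genes, 4 rose, 3 fell and 4 missed the threshold. KHK, the fructokinase gene, rose 1.31-fold, ADPGK, an ADP-dependent glucokinase gene, 1.18-fold and PGM2 1.17-fold. LDHD, the D-lactate dehydrogenase gene, was 1.597-fold lower with groups that overlapped, GALM 1.15-fold lower and FBP1, a gluconeogenic phosphatase gene, 1.12-fold lower. The groups also overlapped for BSG. Limma adjusted p-values of these transport and branch genes were 0.0448 or lower.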

How the data were processed

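The deposited values are a scaled signal, although the table is named raw counts: the authors' values are not whole, have upper quartiles of 79.0 in every library, and low values fall on multiples of a step of 0.0254 to 0.0439, read as the value of 1 read (within 0.02 reads for 67.2% to 72.0% of values at low reads). Per the submitters' processing notes, Partek and hg38 were used; the aligner, quantifier, strand setting and scaling have no entry in the sources used here. Per the labels' protocols, total RNA went into SMARTer mRNA libraries. Estimated reads are values divided by the step.

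Because the values are not counts, limma 3.58.1 in R 4.3.3 was run on log2(value + 0.5) with a mean trend over all 12227 genes and 6 libraries, and two-sided p-values were adjusted by Benjamini-Hochberg over all genes (called under 0.05). It was also run on simulated data with 200 changed genes. Since 7441 genes were called here, that run does not measure its error on these data. The pseudocount understates log2 changes of low genes. Folds are ratios of group means, and gene ends are the table's less 1. The members and lists were chosen with earlier results of these data known, so no list was tested as a set. A list of tissue lineage markers is not reported here. Named genes outside the members are, per list, up to 3 called genes in each direction with the largest change and a mean of at least 1. Alternatives were median-ratio and library-sum scaling, pseudocounts of 0.1 and 2, limma-voom on estimated reads, genes averaging at least 5, each library left out, a replicate block, and limma's treat at a fold of 1.5.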

Additional observations from a re-analysis of the deposited data

How the results depend on the processing

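Outside the test against a fold of 1.5, 27 of the 35 members kept their direction and their side of the threshold under all 13 alternatives; the other 8 were HK1, PDHA1, PDK2, TIGAR, PFKFB2, RPIA, LDHB and SLC16A1. Against a fold of 1.5 (treat in limma), 296 genes were called higher and 355 lower, and among the members 3 were called higher and 0 lower; at an unadjusted p under 0.05 also 0 were lower, while limma-voom, with no minimum fold, called 10 members lower. With each library left out in turn, 3643 to 4017 genes were called higher and 3054 to 3388 lower, and 17 to 19 members higher and 7 to 9 lower. The DCAF1 log2 fold change then ranged from -0.99 to -0.95. LDHB and SLC16A1, which were not called, changed sign: their log2 fold changes ranged from -0.0517 to 0.0148 and from -0.0095 to 0.0035. The replicate block left 18 members higher and 7 lower, with 3826 genes higher and 3216 lower over the table, and ended the call of RPIA (adjusted p = 0.0572). The numbers do not pair the libraries: deviations of same-numbered libraries correlated at 0.018, -0.156 and -0.168, and not every library correlated best with its own number. Other scalings moved the median of all genes by less than 0.03 on the log2 scale (0.02 as deposited). No sign changed for the 12 gene ratios under a pseudocount of 2, the replicate block or any library left out. Only the bases before the gene start were searched as another window: 25 members in place of 28, of 33 with windows, then held ACGTG or GCGTG. These counts lie near the background. By window the share was 54.1% for members and 55.6% for all listed genes, in place of 62.3% and 61.1%. The lowest member, ALDOC, had at least 214 estimated reads in each library, and intervals cover the spread of 3 libraries only.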

Other observations

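Of 11 listed glycogen genes, 6 rose, 2 fell and 3 missed the threshold, where 33.0% of all genes rose and 27.8% fell (median 0.17 on the log2 scale, beside 0.02 over all genes; limma, adjusted over all genes). GBE1, the glycogen branching enzyme gene, had the largest rise, 2.49-fold, at 76.9 ± 2.70 in knockdown and 30.9 ± 1.63 in control cells (SD, n = 3 each). UGP2, whose enzyme makes UDP-glucose, rose 1.32-fold, and GYG1, the glycogenin gene that primes the polymer, rose 1.20-fold. PYGB, the brain-type glycogen phosphorylase gene, averaged 421 ± 10.4 in knockdown and 810.003 ± 18.7 in control cells (SD, n = 3 each), 1.93-fold lower, and PYGL, the liver-type gene, was 1.18-fold lower. The 2 phosphorylase genes fell while the synthesis genes GYG1, UGP2 and GBE1 rose.

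The hexosamine branch, which takes fructose 6-phosphate toward protein glycosylation, split: 3 of 7 genes rose, 3 fell and 1 was not called, beside the same shares of all genes. UAP1, which makes UDP-N-acetylglucosamine, rose 1.46-fold, and PGM3 and GNPNAT1 rose 1.15-fold and 1.08-fold. OGT, the transferase gene that adds this sugar to intracellular proteins, GFPT1, the entry enzyme gene, and OGA, whose enzyme removes the sugar, were 1.13-fold, 1.09-fold and 1.08-fold lower. Limma adjusted p-values of these 6 genes were 0.0280 or lower.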
